A study of Mus musculus with 6 samples.

Results

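A stretch of mouse chromosome 17 between 15 and 35 Mb (GRCm38) held 45 named genes whose mRNA differed between Smarcad1 knockout (KO) and wild-type (WT) small intestinal organoids, of 1420 genes in the deposited table. Smarcad1 is a chromatin remodelling ATPase, and the study asked how its loss changes epithelial gene expression away from microbiota and immune cells. The members were all rows of the table whose start lay in that interval, leaving out 11 rows by name (zinc finger genes starting with Zfp, histocompatibility genes starting with H2-, predicted genes starting with Gm and a number, and RIKEN clones). The table was selected on the KO against WT difference itself, by the authors' own test in these same libraries, so direction and size of the KO changes below are a description of how the selected genes look and carry no test. The order of rises and falls along the stretch was the question put to the members.

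The 6 libraries were poly(A)-selected and strand-specific, 3 from WT and 3 from KO organoids, which are epithelial structures grown in gel from crypts and were collected 5 days after being reseeded from passaged cultures, about 600 per condition. All mice were C57BL/6 and the labels give them as male. KO organoids lacked a loxP-flanked group of Smarcad1 exons in a line made from 1 targeted embryonic stem cell clone, and WT organoids kept them. For the deletion, the genotype label names Vil-Cre, which acts in intestinal epithelium, whereas the growth protocol and the study's methods name ZP3-cre, which acts in the oocyte, and control littermates. Only the names KO and WT are used for that reason. Nothing in the sources used here says that the 3 libraries of a group came from separate animals, so the spread between them may be technical.

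Depth ranged from 1.24e+07 to 1.57e+07 reads per library, and 3 reads corresponded to 0.192 to 0.242 RPM (reads per 1e+06 reads of the library, not scaled by gene length). Smarcad1 itself, on chromosome 6, averaged 98.8 ± 5.80 RPM in the 3 WT and 22.3 ± 1.49 RPM in the 3 KO libraries (mean ± SD). This was a log2 change of -2.14 ± 0.10 (SE), in the direction of the labels. Of fixed marker lists, 11 of 14 Paneth, 8 of 12 enterocyte, 4 of 11 goblet, 4 of 11 enteroendocrine, 2 of 8 stem cell, 1 of 6 tuft, 1 of 6 immune (Lyz2), 1 of 6 mast cell (Kit) and 0 of 6 mesenchymal genes were in the table. A place in the table marks a difference between KO and WT and not expression as such, so these counts do not give the make-up of the organoids, and markers not in the table were not analysed here. In bulk RNA of organoids, fewer cells of a type and less RNA per cell cannot be told apart.

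The part of chromosome 17 that was read holds gene families that arose by local duplication. Its centromere side carries a cluster of trypsin-like serine proteases (Prss33, Prss41 and Prss30), with the transmembrane tryptase Tpsg1 further along, and its far end carries Cyp4f fatty acid hydroxylases, the butyrophilin-like genes Btnl1 and Btnl2, whose products engage intestinal T cells, and complement genes of the major histocompatibility complex. Genes with general roles lie between them, such as the chromatin protein gene Hmga1, the ribosomal protein genes Rps2 and Rps10 and the detoxifying enzymes Glo1 and Hagh. A shared promoter region or a shared regulatory element can serve neighbouring genes, so the order in which genes rise and fall along a chromosome is a common readout for chromatin factors.

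Of the 45 members, 29 were higher and 16 lower in KO, a share of 64.4% higher, where the table as a whole had 52.6% higher. A change of at least 1 on the log2 scale (a doubling or halving) was seen upwards in 12 members (26.7%, against 19.0% of the table) and downwards in 5 (11.1%, against 8.10% of the table). The median log2 change was 0.51 over the members and 0.38 over all listed genes. The median size of the change, whatever its direction, was 0.62 over the members and 0.64 over all listed genes. In all 45 members the KO values lay wholly above or wholly below the WT values, as they did in 98.5% of the table. The limma fit over the table gave an adjusted p-value under 0.05 for 45 of 45 members and for 99.9% of the table. All of these counts rest on the contrast that selected the table, and nothing is read from them.

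**Figure D1:**
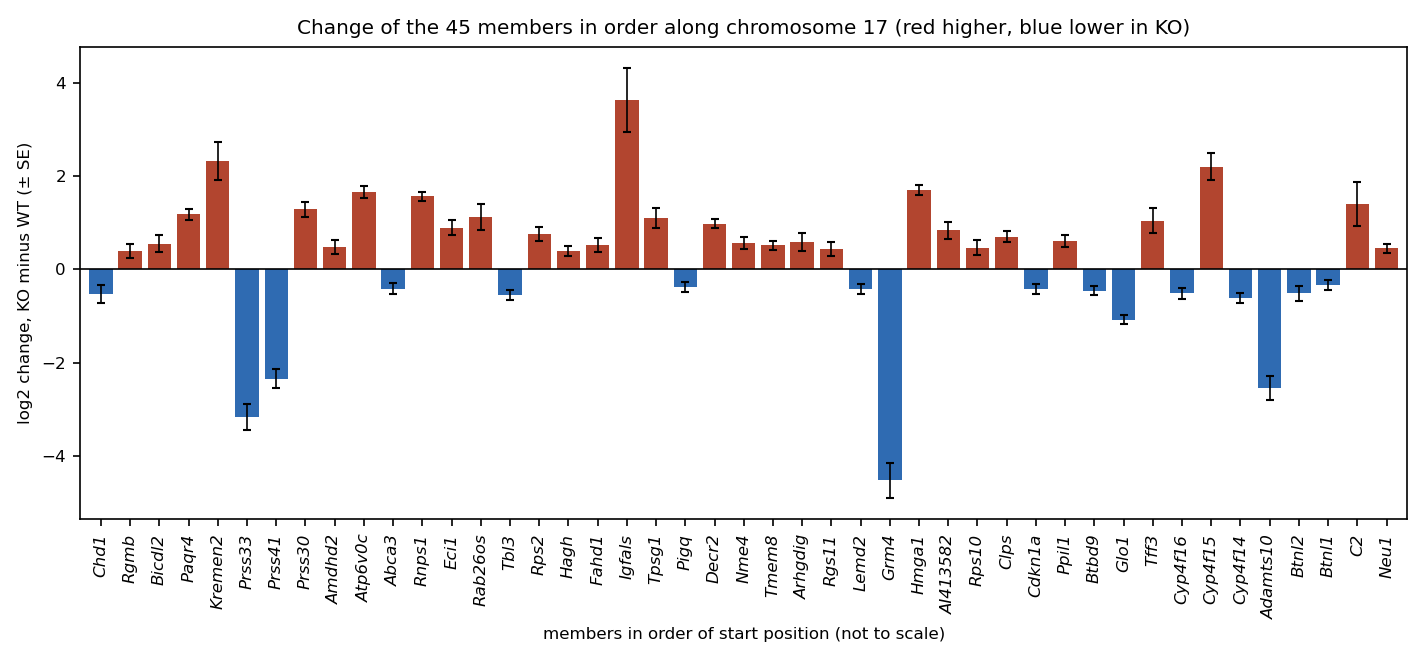
Bars give the log2 change (KO minus WT, on log2 of RPM + 0.1) of each of the 45 members with the standard error of the limma fit (n = 3 and 3 libraries), placed in order of start position and not to scale. Red bars (29) are higher and blue bars (16) lower in KO, and the longest bars are those of Grm4 at -4.53 and Igfals at 3.63.

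Read from the centromere side, the direction switched 19 times over the 44 neighbouring pairs, so the 45 members formed 20 runs. The other 25 pairs went the same way, where neighbouring rows of the whole table, with the same kinds of names left out, did so in 703 of 1276 pairs (55.1%). The longest runs of higher members held 5 genes each, from Rps2 to Tpsg1 and from Decr2 to Rgs11, and the longest run of lower members held 4, from Cyp4f14 to Btnl1. Of the 20 runs, 7 held 3 or more members and 9 held a single member. In the first 5 Mb there were only 2 members, Chd1 lower and Rgmb higher. Between 20 and 25 Mb, 13 of 17 members were higher, and between 25 and 30 Mb, 11 of 15. In the last 5 Mb lower members were more numerous, with 4 of 11 higher and 7 lower. The rows left out by name there, H2-Eb1 and Gm20547, were both higher. With them kept, the excess of lower rows is smaller, though lower rows stay more numerous. The number of annotated protein-coding genes in the same windows was 37, 134, 137 and 138, so the members were a small part of the genes there and most of the genes between them were not analysed here.

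Listed rows just inside and just outside the limits of the stretch had changes under 1 on the log2 scale. Phf10, whose interval opens at 14945009 just outside, had a log2 change of -0.77, and Chd1, the first member, started at 15704967 with -0.52. Neu1, the last member, started at 34931253 with 0.45, and the next listed row outside, H2-Q1 at 35320405, had -0.81. On the rest of chromosome 17 the table listed 40 rows, 23 higher and 17 lower. Of the 11 rows left out by name inside the stretch, 9 were higher and 2 lower.

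The first member stood alone in its direction. Chd1 (chromosome 17 from 15704967 to 15772610, plus strand) encodes a chromodomain helicase that remodels nucleosomes at active genes. The WT libraries gave 187, 171 and 163 RPM for Chd1, and the KO libraries 93.3, 121 and 156 RPM. The groups did not overlap, but KO replicate 3 came close to the lowest WT library, and the log2 change of -0.52 ± 0.19 (SE) became -0.34 without KO replicate 1. The next gene, Rgmb, a co-receptor for bone morphogenetic proteins, lies 33.6 kb further on the other strand and went the other way, with 114, 102 and 100.1 RPM in WT against 116, 137 and 166 RPM in KO. Its lowest KO library was barely above its highest WT library, and the log2 change of 0.39 ± 0.15 (SE) became 0.26 without KO replicate 3. Rgmb also stands in the stem cell list, whose only other gene in the table, Sox9, was higher by 0.56 on the log2 scale, and its part in the Rgmb or Hmga1 values was not tested.

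After a gap of 7834 kb without a member, a tight group around 23.7 Mb was higher in KO. The gap held rows left out by name, of which Zfp983 was lower at -1.34 and Zfp760, Zfp229, Zfp943, Zfp758 and Zfp213 were higher. Bicdl2, a cargo adaptor of the BICD family, went from a mean of 24.1 to 36.0 RPM. Paqr4, a membrane receptor of the progestin and adipoQ family (23736186 to 23740330, minus strand), was at 66.5, 73.9 and 70.8 RPM in WT and at 178, 155 and 147 RPM in KO. This is a log2 change of 1.18 ± 0.11 (SE), with the lowest KO library at nearly double the highest WT library. Kremen2, a receptor that with Dickkopf proteins dampens Wnt signalling, lies 869 bases further along the chromosome, also on the minus strand. It was at 0.855, 1.47 and 2.09 RPM in WT and rose to 11.2, 7.69 and 4.55 RPM in KO. The log2 change of Kremen2 was 2.32 ± 0.41 (SE), resting on 66 reads over the WT and 316 reads over the KO libraries. Of 11 listed modulators of BMP and Wnt signalling, 3 were in the table (Rgmb, Kremen2 and Bambi), and all of these 3 were higher in KO.

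The serine protease cluster that follows held both directions. Prss33, 87.5 kb beyond Kremen2 (23833360 to 23836056, minus strand), was at 3.03, 3.26 and 2.41 RPM in WT and at 0.403, 0.206 and 0.140 RPM in KO. In reads this was 127 over the WT libraries and 10 over the KO libraries, a WT level 12.0 times that of KO (95% counting interval 6.29 to 25.5). Prss33 in KO replicates 2 and 3 was at or under the level of 3 reads, and its log2 change of -3.16 was -1.64 with a pseudocount of 1. Its neighbour Prss41, a membrane-anchored protease 728 bases further on the same strand, was likewise low in KO. Prss41 was at 18.7, 26.9 and 20.4 RPM in WT and at 5.39, 3.43 and 3.99 RPM in KO, a log2 change of -2.35 ± 0.21 (SE).

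Prss30, another trypsin-like protease of the cluster (23972126 to 23975230, minus strand), moved in the opposite direction. It was at 21.5, 25.3 and 23.2 RPM in WT and at 68.4, 59.0 and 46.2 RPM in KO, a log2 change of 1.29 ± 0.16 (SE). Tpsg1, a transmembrane tryptase first described in mast cells, lies more than 1 Mb away and was also higher, at 14, 15.1 and 14.6 RPM in WT and at 40.3, 33.4 and 22.6 RPM in KO. Its log2 change was 1.10, and 0.91 without KO replicate 1. Of 6 mast cell markers, 1 was in the table, Kit, at a log2 change of 0.52, and its part in the Tpsg1 value was not tested. Counted over the table, 4 of 15 listed genes for membrane-anchored and tryptase-like proteases were present, and these were the 4 members just described, 2 higher and 2 lower. The secreted metalloprotease Adamts10, which acts on microfibrils, stood alone among them near 33.5 Mb. It was at 4.35, 5.68 and 4.63 RPM in WT and fell to 0.644, 1.17 and 0.561 RPM in KO, a log2 change of -2.54 ± 0.26 (SE).

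**Figure D2:**
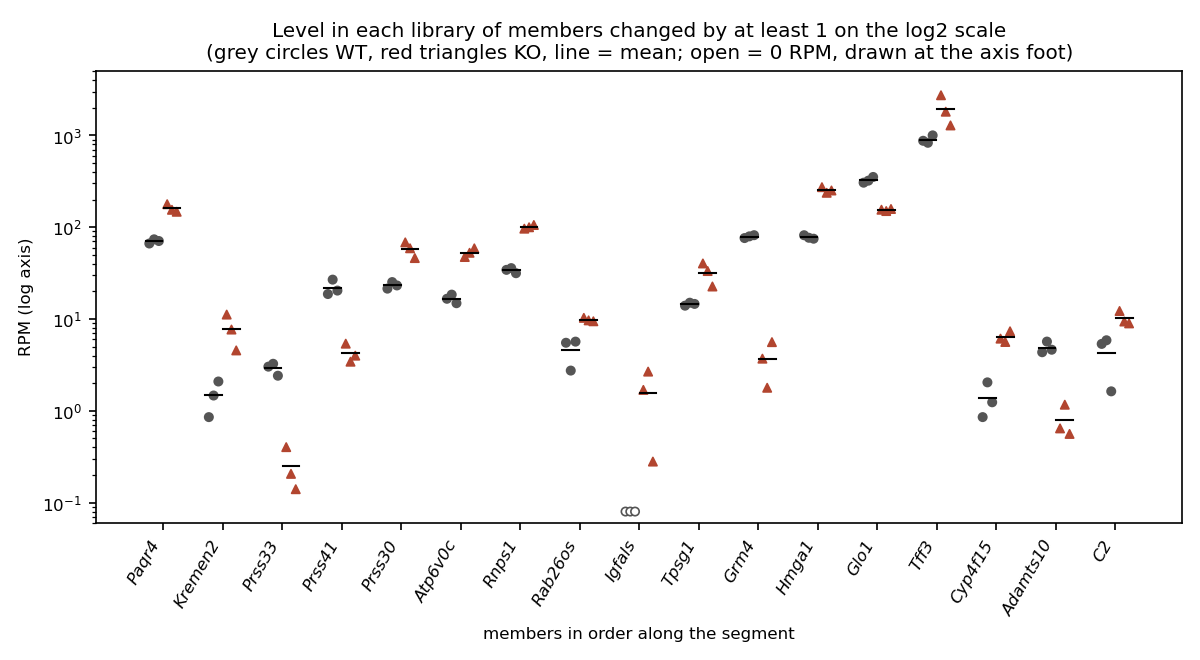
Points give the RPM of each library on a log axis for the 17 members whose log2 change was at least 1 in size (grey circles WT, red triangles KO, n = 3 each), and lines give group means. Open circles mark 0 RPM, as in the WT libraries of Igfals, and in each of the 17 members the KO points lie on 1 side of the WT points.

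Sequence around the start sites of members was read from RefSeq promoter windows on GRCm38.p6, each running from 250 bases before to 50 bases after a start. Windows were matched by symbol, chromosome and strand for 31 of the 45 members. Where a gene had several, the one nearest its deposited start, read on the strand of the gene, was taken. The 5 windows below are shown because they belong to related members that moved apart (Prss41 and Prss30), to an overlapping pair that moved together (Fahd1 with Hagh), and to a higher and a lower member rich in GC boxes (Hmga1 and Glo1). Each is written 5′ to 3′ on the strand of the gene. Capitals mark a GC box (GGGCGG on either strand) or a CCAAT box (CCAAT on either strand), and the motifs may overlap. The Prss41 window, chr17:23844107-23844406, minus strand, holds neither motif.
Prss41: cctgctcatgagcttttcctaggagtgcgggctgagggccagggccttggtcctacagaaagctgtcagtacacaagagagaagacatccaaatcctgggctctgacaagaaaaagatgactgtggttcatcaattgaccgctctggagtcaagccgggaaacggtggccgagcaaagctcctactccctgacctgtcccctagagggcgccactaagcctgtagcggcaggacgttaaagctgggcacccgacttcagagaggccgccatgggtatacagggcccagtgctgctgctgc
The Prss30 window, chr17:23975181-23975480, minus strand, holds both motifs, overlapping each other.
Prss30: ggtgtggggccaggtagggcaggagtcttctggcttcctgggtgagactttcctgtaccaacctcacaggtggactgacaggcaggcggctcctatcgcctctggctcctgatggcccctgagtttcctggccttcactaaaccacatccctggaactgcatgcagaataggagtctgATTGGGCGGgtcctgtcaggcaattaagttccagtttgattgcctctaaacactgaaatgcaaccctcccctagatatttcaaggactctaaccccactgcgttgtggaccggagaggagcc
The Fahd1 window, chr17:24850253-24850552, minus strand, also covers 1 of the 2 RefSeq starts of Hagh, which is 188 bases away and read in the other direction.
Fahd1: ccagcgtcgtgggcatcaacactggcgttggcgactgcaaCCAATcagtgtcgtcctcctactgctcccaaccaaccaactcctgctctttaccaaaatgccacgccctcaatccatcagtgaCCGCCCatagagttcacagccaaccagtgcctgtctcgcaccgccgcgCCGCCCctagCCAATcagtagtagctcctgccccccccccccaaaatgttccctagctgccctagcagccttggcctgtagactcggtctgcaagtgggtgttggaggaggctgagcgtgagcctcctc
The Hmga1 window, chr17:27556354-27556653, plus strand, had the most CpG dinucleotides of the 31 windows taken, at 38.
Hmga1: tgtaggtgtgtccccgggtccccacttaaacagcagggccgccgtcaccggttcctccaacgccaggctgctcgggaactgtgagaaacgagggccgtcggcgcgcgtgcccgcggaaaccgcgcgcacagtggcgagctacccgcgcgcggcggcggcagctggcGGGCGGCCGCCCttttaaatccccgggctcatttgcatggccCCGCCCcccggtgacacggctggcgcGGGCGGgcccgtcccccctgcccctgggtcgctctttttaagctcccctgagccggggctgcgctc
The Glo1 window, chr17:30612610-30612909, minus strand, belongs to the lower member with the highest number of GC boxes, at 3.
Glo1: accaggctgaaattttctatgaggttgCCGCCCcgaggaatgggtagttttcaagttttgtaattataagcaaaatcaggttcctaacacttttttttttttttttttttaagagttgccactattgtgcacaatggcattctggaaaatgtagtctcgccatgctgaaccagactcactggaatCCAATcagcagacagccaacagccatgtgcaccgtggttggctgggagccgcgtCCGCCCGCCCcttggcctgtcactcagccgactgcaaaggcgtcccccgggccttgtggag

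A GC box was present in the windows of 19 of 21 higher members and in 3 of 10 lower members. The windows of Hagh and Fahd1 are largely the same bases and count as 2 of the higher members, and those of Hagh, Rps2, Rps10 and Pigq lie 10347, 1947, 1385 and 2521 bases from the deposited start. Over the table the shares went the other way by direction, with a GC box in 280 of 528 higher genes and 313 of 518 lower genes, and 35.7% of all windows of this length in the set held one. The median number of CpG dinucleotides was 16 in the windows of higher members and 2.5 in those of lower members, against 14 and 20 in higher and lower genes of the table. Counted over any window of a gene, a GC box was present in 19 of 21 higher and 4 of 10 lower members, since a second window of Cdkn1a holds 23 CpG and 2 GC boxes. Lower members with 2 or 3 CpG in the window nearest the deposited start were Prss33, Cdkn1a, Cyp4f16, Cyp4f14, Btnl2 and Btnl1, which include family members lying side by side. The higher members Tpsg1 and Cyp4f15 also had 2 each, and the lower members Abca3 and Pigq had 29 and 26. The CCAAT box was present in 13 of 21 higher and 4 of 10 lower members, against 206 of 528 and 235 of 518 genes of the table. The TATA box (letters TATAAA) was present in 2 of 21 and 0 of 10, against 66 of 528 and 50 of 518. These counts were made after the directions were known, rest on few genes and are given as a description.

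**Figure D3:**
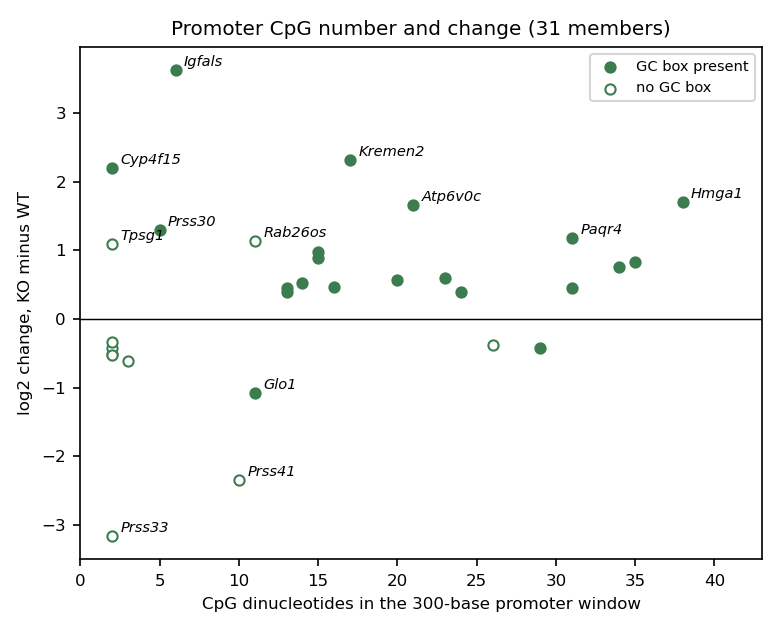
Each point is 1 of the 31 members with a matched window, with the number of CpG dinucleotides in its 300 bases on the horizontal axis and its log2 change (KO minus WT) on the vertical axis. Filled points have a GC box, and 19 of the 21 points above the zero line are filled against 3 of the 10 below it.

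Between 24.1 and 24.9 Mb most members were higher. Amdhd2, which removes the acetyl group from N-acetylglucosamine 6-phosphate, went from a mean of 68.0 to 95.1 RPM. Atp6v0c, the membrane ring subunit of the proton pump that acidifies lysosomes and granules, lies 99 bases further along the chromosome, also on the minus strand (24163866 to 24169702). It was at 16.6, 18.5 and 14.9 RPM in WT and at 47.4, 52.7 and 58.9 RPM in KO, a log2 change of 1.66 ± 0.13 (SE). Atp6v0c shares at least 97% identity over 200 bases or more with 2 other annotated genes, over 15.2% of its longest transcript. Abca3, a lipid transporter known from lung surfactant, was lower, with 134 RPM in WT and 100.3 RPM in KO on average.

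Rnps1 lies 4.47 kb beyond Abca3 on the same strand and went the other way, the only such case among the 10 neighbouring pairs of members within 10 kb. Between them ends D330041H03Rik, a row left out by name (24404649 to 24414542, minus strand), which was higher like Rnps1, at 2.22. The product of Rnps1 binds spliced mRNA at exon junctions. Rnps1 was at 34.4, 35.9 and 31.6 RPM in WT and at 96.5, 100.0 and 106 RPM in KO, with a narrow spread in both groups and a log2 change of 1.57 ± 0.10 (SE). Eci1, a mitochondrial isomerase used in oxidising unsaturated fatty acids, starts 787 bases further and went from a mean of 102 to 192 RPM. Rab26os, an antisense transcript at Rab26 and the only non-coding member, was at 5.52, 2.75 and 5.68 RPM in WT and at 10.3, 9.68 and 9.46 RPM in KO. The Rab26os change of 1.13 became 0.80 without WT replicate 2.

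Tbl3, a protein of ribosomal RNA processing, interrupted the rises with a mean of 150.5 RPM in WT and 103 RPM in KO. Rps2, a small ribosomal subunit protein, then opened a run of 5 higher members (24718116 to 24721929, plus strand). It was at 1101, 1105 and 1307 RPM in WT and at 2334, 1977 and 1674 RPM in KO. Rps10, near 27.6 Mb, also encodes a protein of the small subunit and was at 322, 347 and 371 RPM in WT and at 591, 453 and 403 RPM in KO. The log2 changes were 0.76 for Rps2 and 0.46 for Rps10, and in both the KO libraries spread more widely than the WT libraries. Rps2 has 16 near-identical pseudogenes that cover 84.6% of its longest transcript, and Rps10 has 2, so their levels are uncertain where only uniquely mapped reads were kept. The change of Rps10 became 0.30 without KO replicate 1.

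Hagh and Fahd1 overlap by their deposited coordinates and lie on opposite strands. Hagh, the glyoxalase that completes the conversion of methylglyoxal to lactate, was at 59.1, 53.3 and 51.0 RPM in WT and at 71.1, 73.6 and 69.6 RPM in KO. Fahd1, a mitochondrial oxaloacetate decarboxylase, was at 116, 98.4 and 127 RPM in WT and at 188, 158 and 144 RPM in KO. Both were higher, by 0.39 and 0.52 on the log2 scale, and the promoter window shown above holds the RefSeq start of Fahd1 and 1 of 2 of Hagh, although the deposited interval of Hagh begins 10347 bases before that start. The libraries mark strand, but whether reads were counted by strand is not given in the sources used here, so reads from the overlap cannot be assigned with certainty. In all, 23 members overlap another annotated gene on the other strand and 10 overlap one on their own strand.

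Igfals, the acid-labile subunit that carries insulin-like growth factors in serum, was listed at 0 in each WT library and at 1.69, 2.68 and 0.280 RPM in KO (24878770 to 24882008, plus strand). The KO libraries held 64 reads of Igfals in all. Against 3 reads per library in WT, the mean KO level was at least 7.49-fold higher. KO replicate 3 was close to that level, so the rise was carried by the other two KO libraries. The fitted log2 change of 3.63 depends on the pseudocount and was 1.22 with a pseudocount of 1.

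Pigq, an enzyme of glycolipid anchor synthesis, fell from a mean of 183 to 142 RPM and separated that run from the next. Decr2, a peroxisomal reductase for polyunsaturated fatty acids, led the second run of 5 higher members (26081211 to 26090329, minus strand). It was at 45.4, 48.0 and 45.8 RPM in WT and at 87.2, 95.2 and 93.0 RPM in KO, a log2 change of 0.98 ± 0.09 (SE). Nme4, a mitochondrial nucleoside diphosphate kinase 1.40 kb beyond it, went from a mean of 22.5 to 33.6 RPM, and the membrane protein gene Tmem8 from 185 to 265 RPM. Of 22 listed genes of beta-oxidation and unsaturated fatty acid oxidation, 3 were in the table (Eci1, Decr2 and Acaa1a), and these 3 were higher in KO.

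Arhgdig and Rgs11 overlap on opposite strands at the end of that run. Arhgdig was at 57.5, 62.2 and 63.8 RPM in WT and at 121, 87.8 and 72.4 RPM in KO. Rgs11, which shortens G protein signals, was at 45.2, 47.5 and 45.2 RPM in WT and at 51.0, 61.9 and 75.5 RPM in KO. Both were higher, but the KO libraries ranked in opposite order, with KO replicate 1 highest for Arhgdig and lowest for Rgs11. Arhgdig also overlaps Pdia2 on its own strand, and its change of 0.58 became 0.38 without KO replicate 1.

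Grm4 had the largest change of the 45 members (27422387 to 27513341, minus strand). It encodes a metabotropic glutamate receptor that lowers cyclic AMP through an inhibitory G protein and is best known from nerve terminals. Grm4 was at 76.2, 79.6 and 82.0 RPM in WT and at 3.70, 1.78 and 5.61 RPM in KO. The WT libraries were close together and the KO libraries spread from 1.78 to 5.61 RPM, yet the groups stood far apart. The group means (± SD, n = 3) were 79.3 ± 2.88 RPM in WT and 3.70 ± 1.91 RPM in KO, a level 21.4-fold lower and a log2 change of -4.53 ± 0.38 (SE). Over the alternatives that each left out a library, the change stayed between -4.89 and -4.09. Of the 8 genes of its receptor family, Grm4 was the only one in the table. The preceding member, the inner nuclear membrane protein gene Lemd2, was lower as well but by far less, from 121 to 90.3 RPM on average.

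Only 43.3 kb further along the chromosome than Grm4, on the other strand, Hmga1 was higher (27556620 to 27563674). Hmga1 encodes an AT-hook chromatin protein that is abundant in proliferating and stem cells, including those of intestinal crypts. It was at 81.9, 76.8 and 75.1 RPM in WT and at 273, 237 and 252 RPM in KO, a log2 change of 1.70 ± 0.10 (SE). Of the neighbours within 100 kb that went opposite ways, Grm4 and Hmga1 differed most, ahead of Kremen2 and Prss33. Hmga1 shares near-identical sequence with 1 other gene, Hmga1b, over 76.9% of its longest transcript. AI413582 overlaps the end of Hmga1 by 100 bases on the other strand and was at 8.63, 9.90 and 9.72 RPM in WT and at 19.6, 19.1 and 12.8 RPM in KO. Its rise of 0.84 was thus smaller than that of Hmga1 and more uneven.

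**Figure D4:**
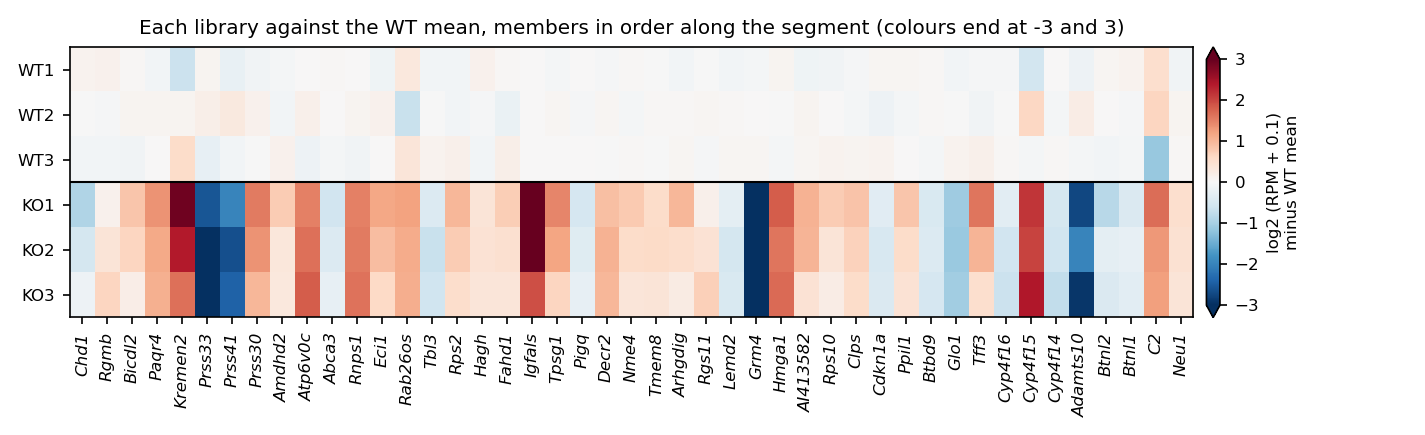
Colours give log2(RPM + 0.1) of each library minus the WT mean for the 45 members in order along the stretch, red above and blue below, with the scale ending at -3 and 3. The 3 KO rows repeat the same sequence of red and blue, and KO1 is the highest KO row in 20 of the 29 higher members.

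The remaining run of higher members ended with Clps (28558210 to 28560766, minus strand), the colipase that anchors lipase on fat droplets. It was at 54.9, 53.6 and 59.3 RPM in WT and at 101, 90 and 82.5 RPM in KO, a log2 change of 0.70. That change was 0.09 once a trend with transcript length over the table was removed. Cdkn1a, the p21 inhibitor of cyclin-dependent kinases and a target of p53, fell from a mean of 421 to 314 RPM. Of 14 listed p53 targets, 2 were in the table (Cdkn1a and Gdf15), both lower. The spliceosomal cyclophilin gene Ppil1 was higher, from 69.3 to 106 RPM. Among the 4 members with roles in chromatin, the cell cycle or the nucleus, Hmga1 was higher and Chd1, Lemd2 and Cdkn1a lower, and among the 5 with roles in RNA and translation, Tbl3 alone was lower.

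Glo1 encodes the glyoxalase that acts first on methylglyoxal, upstream of Hagh (30592866 to 30612659, minus strand). It was at 306, 322 and 353 RPM in WT and at 155, 150.2 and 158 RPM in KO, a log2 change of -1.08 ± 0.10 (SE). The KO libraries were tightly grouped at less than the lowest WT level. The mRNAs of the 2 glyoxalases went in opposite directions, with Glo1 lower and Hagh slightly higher. These were the only 2 of 6 listed genes of methylglyoxal and lactate handling in the table. Its neighbour Btbd9, a BTB domain protein gene 16.6 kb away on the same strand, was lower too, from 101 to 73.9 RPM. With the length trend removed the change of Btbd9 was -0.05 in place of -0.46, that of Glo1 was -0.73 and that of Hagh 0.12 in place of 0.39. Glo1 shares near-identical sequence with 2 other annotated genes over 9.86% of its longest transcript.

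Tff3, the trefoil peptide that goblet cells secrete with mucus, was the most abundant member per kilobase of exon, at 1832 RPM per kb in WT. It was at 875, 832 and 1002 RPM in WT and at 2741, 1814 and 1286 RPM in KO (31125306 to 31129646, minus strand). KO replicate 1 was more than double KO replicate 3, and the log2 change of 1.04 ± 0.27 (SE) became 0.76 without KO replicate 1. It was 0.39 with the length trend removed. The 3 other goblet markers in the table (Muc2, Spink4 and Guca2a) were higher, and without Tff3 their summed level ranged from 1163 to 1247 RPM in WT and from 1811 to 3004 RPM in KO. Paneth cell markers were higher as well, in 11 of the 11 in the table, with summed levels of 9352 to 10720 RPM in WT and 19884 to 29486 RPM in KO. So were the 4 enteroendocrine markers in the table, with summed levels of 599 to 630 RPM in WT and 823 to 1415 RPM in KO. Their part in the Tff3 value was not tested.

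The Cyp4f genes, which hydroxylate fatty acids and eicosanoids, lie close together and differed in direction. Cyp4f16 was at 225, 229 and 235 RPM in WT and at 186, 154 and 146 RPM in KO. Cyp4f14, the third most abundant member per kilobase after Tff3 and Rps2, was at 1373, 1299 and 1386 RPM in WT and at 939, 897 and 816 RPM in KO. Both were lower, by 0.51 and 0.62 on the log2 scale. Cyp4f15, which lies between them, was low in WT at 0.855, 2.04 and 1.24 RPM and higher in KO at 6.12, 5.63 and 7.36 RPM. Its log2 change was 2.20 ± 0.29 (SE), from 62 reads over the WT and 263 over the KO libraries, so the 3 genes ran lower, higher, lower along the chromosome. Of 12 listed Cyp4 genes, 4 were in the table, 2 higher and 2 lower.

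Btnl2 and Btnl1, 7.64 kb apart on the same strand, were both lower. Btnl2, a gene for a surface protein that restrains T cells, was at 54.9, 52.8 and 49.7 RPM in WT and at 29.3, 42.9 and 39.0 RPM in KO. Btnl1, which helps maintain gamma delta T cells of the gut lining, was at 170.4, 154 and 153 RPM in WT and at 118, 134 and 127 RPM in KO (34377132 to 34385776, plus strand). The log2 changes were -0.52 and -0.33, and these were the 2 members of the butyrophilin-like list of 7 in the table. Enterocyte markers in the table were lower in 7 of 8, with summed levels of 19798 to 22693 RPM in WT and 14510 to 15692 RPM in KO. Their part in the lower values of Btnl1, Btnl2, Cyp4f14 and Cyp4f16 was not tested.

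The stretch ended with a pair of higher members. C2, a protease of the classical complement pathway, was at 5.36, 5.88 and 1.63 RPM in WT and at 12.2, 9.40 and 8.97 RPM in KO. WT replicate 3 stood apart, and the log2 change of 1.41 ± 0.47 (SE) became 0.84 without it. C2 also overlaps the predicted gene Gm20547 on its own strand. Neu1, the lysosomal sialidase, closed the series with a mean of 157 RPM in WT and 214 RPM in KO, a log2 change of 0.45.

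The direction of neighbours was also counted by distance. Of 22 neighbouring pairs that overlapped or lay at most 100 kb apart, 17 had the same direction and 5 opposite directions. Of the 22 pairs further apart, 8 had the same direction and 14 opposite directions. Within 10 kb the count was 9 of 10, with Abca3 and Rnps1 as the exception. The 3 overlapping pairs of members (Hagh with Fahd1, Arhgdig with Rgs11, and Hmga1 with AI413582) all rose together. Of the rows left out by name, D330041H03Rik overlaps Abca3 on the other strand and went the other way, at 2.22 against -0.42. Rnps1, just beyond D330041H03Rik, was higher like it. Gm20547, which overlaps C2, was higher like C2, at 0.33. Over the whole table the same direction was shared by 169 of 260 pairs within 100 kb (65.0%), 534 of 1016 pairs further apart (52.6%) and 54 of 67 pairs within 10 kb (80.6%). The pairs of the table include those of the members, and the pairs share members with each other and the distance classes were set with the directions known, so the counts are a description without a test. Besides Abca3 and Rnps1, the close pairs of members with opposite direction were Chd1 and Rgmb, Kremen2 and Prss33, Tbl3 and Rps2, and Grm4 and Hmga1.

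**Figure D5:**
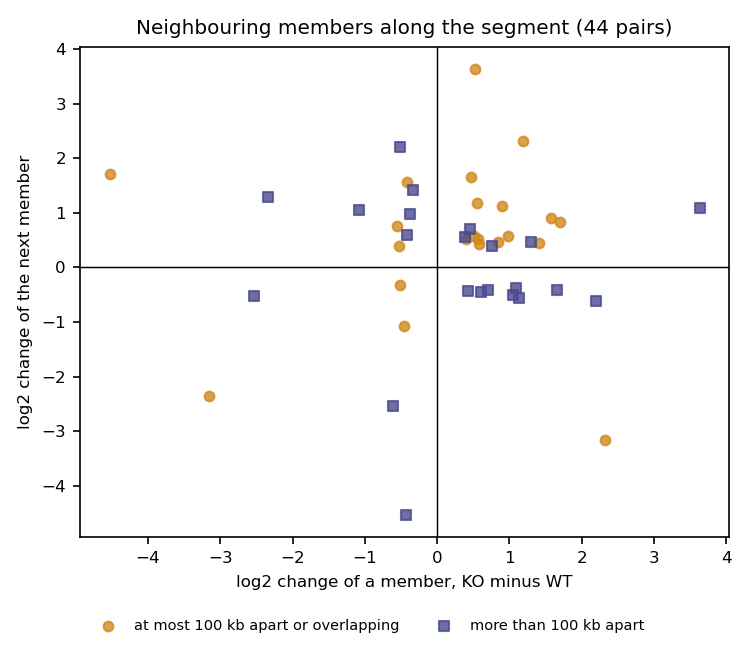
Each of the 44 points is a pair of neighbouring members, with the log2 change (KO minus WT) of the first on the horizontal and of the next on the vertical axis. Points in the upper right and lower left quadrants moved the same way, which holds for 17 of the 22 close pairs (circles, at most 100 kb) and 8 of the 22 distant pairs (squares).

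By strand, 13 of 20 members were higher on the plus strand and 16 of 25 on the minus strand. Exon length, taken from the annotation joined by symbol and position, moved with direction: higher members had a median of 2311 bases of merged exon and lower members 5280 bases, against 3408 and 4426 bases in the table. With the trend over length removed, 29 members were still higher, but 14 had a change smaller by more than 1.5 times (10 higher and 4 lower members). Besides Clps, Btbd9 and Tff3 these were Chd1 at -0.24, Abca3 at -0.11, Pigq at -0.18, Rab26os at 0.48, Rps2 at 0.47, Hagh at 0.12, Fahd1 at 0.15, Tpsg1 at 0.70, Nme4 at 0.22, Arhgdig at 0.23 and Rps10 at 0.25. Rgmb alone was larger by more than that factor, at 0.64. The part of length in the pattern was not tested beyond that.

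Spread between libraries was wider in KO. The median coefficient of variation over members was 6.69% in WT and 14.3% in KO, against 8.34% and 13.4% in the table. KO replicate 1 was the highest KO library in 20 of the 29 higher members (69.0%, against 50.9% of higher genes in the table). Among the 16 lower members KO replicate 1 was the lowest in 5 (31.2%), whereas over the table it was the lowest in 73.1% of lower genes. The lower members therefore showed no common order of the KO libraries, as the values of Glo1, Grm4 and Adamts10 above also show.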

How the data were processed

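mRNA was measured in small intestinal organoids, 3 WT and 3 KO libraries grouped by sample title. The authors trimmed reads with Trim Galore 0.4.2, mapped them to GRCm38 with HISAT2 2.0.3, and counted the uniquely mapped ones in SeqMonk 1.42.0 over merged exons. The deposited values are RPM, scaled by the authors to each library. The deposited FDR (corrected p-value) column, from DESeq2, and the fold columns hold the authors' comparison. It was used only to see that all listed genes were under 0.05.

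Values within a library were whole multiples of a common step (100% within 0.01), taken as 1 read, which gave the depths. A floor of 3 reads and the 95% counting intervals cover counting error only. The limma fit (3.58.1, R 4.3.3) used log2(RPM + 0.1) over all 1420 rows, two-sided, with Benjamini-Hochberg adjustment. Log2 changes are on this scale and understate changes of low genes. The procedure was tested on simulated data. Genes were joined to GENCODE M21 by symbol and position for strand and exon length, which gave 1396 of 1420 rows and all 45 members, 17 of these with identical coordinates. Lengths and values per kb rest on this join. Near-identical copies were sought with blastn 2.17.0 (at least 97% over 200 bases). Each library counted as 1 replicate.

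The members and lists were chosen with earlier results of these data known. Every member was named. Values per library were given for changes of at least 1 in log2 size, overlapping or related pairs, and ends of runs of 3 or more. Alternatives were a replicate block, a low-value filter, a pseudocount of 1, centring, a limma intensity trend and removal of a length trend. Others were a 1.5-fold limit, keeping the rows left out by name, and leaving out each library.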

Additional observations from a re-analysis of the deposited data

How the results depend on the processing

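None of the directions of the 45 members or of Smarcad1 reversed under the alternatives run. Removing 9 members below the 25th percentile of mean RPM (18.5) left 36, of which 9 in place of 17 changed by at least 1 on the log2 scale. The Smarcad1 change of -2.14 was -2.23 with libraries centred on their median listed gene and -1.78 with the length trend removed. Leaving out each library in turn gave 35 to 43 members past the limma threshold, 16 to 19 changed by at least 1, 29 higher and 19 direction changes throughout, and a Smarcad1 change between -2.20 and -2.09. Of the members near that limit, Eci1, Rab26os, Tpsg1, Decr2, AI413582, Tff3 and C2 crossed it when some library was left out, and Rab26os, Tpsg1, Glo1 and Tff3 were under it without the length trend. WT and KO libraries of the same replicate number were nearly uncorrelated in their deviations from the group mean (correlations of -0.08, 0.09 and 0.06). Taken over genes selected on the contrast, these values cannot show whether the libraries were paired. With the replicate block 41 members passed the limma threshold and the Smarcad1 change was -2.14. Chd1, Rgmb, Rps10 and Btnl1 did not pass with the block. After centring, 40 members passed the limma threshold, and with the intensity trend 45 did. The shares of the whole table under these alternatives are not given here, so nothing particular to the members is read from these counts. The KO and WT values of Rgmb, Bicdl2 and Rps10 overlapped after centring. With the rows left out by name kept, chosen after seeing the data, 38 of 56 were higher and the direction switched 23 times. Of 486 values for single members under alternatives, 446 moved by less than the replicate spread and 40 by more, of which 26 came from removal of the length trend (such as Hmga1 at 1.46, Decr2 at 0.84 and Cyp4f14 at -0.80), 10 from centring and 4 from a pseudocount of 1 (Prss33 at -1.64, Igfals at 1.22, Adamts10 at -1.73 and Cyp4f15 at 1.65). Depth limits Prss33 in KO and Igfals in both groups.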
